A study of Mus musculus with 9 samples.

Results

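The expression of 10 hypoxia-induced and glycolytic genes (Vegfa, Adm, Car9, Slc2a1, Hk2, Pgk1, Ldha, Pdk1, Bnip3 and Ndrg1) was examined in 9 mouse mammary tumours. The genes were taken by symbol from the 18484 genes in the count files, where all 10 were found. The tumours arose in BlgCre-NeuKI mice on a mixed FVB/C57Bl6 background, in which Cre, driven by the beta-lactoglobulin promoter and directed mainly at luminal mammary cells, removes a stop cassette and switches on a heterozygous activated Neu oncogene knocked into the endogenous Erbb2 locus. All tumours share this genotype, no treatment was given, and normal gland and tumour-free controls were not analysed here. The 5 high-amplified tumours, with a high copy number of the Erbb2/Neu locus, were all adenocarcinomas of no special type, abbreviated AC(NST). Of these, MS1213.1 and the same-numbered MS1163.1 and MS1163.2 arose in virgin mice, and the parous mice, which had been through pregnancy, gave MS1155.3 and MS1218.2. The 3 not/low-amplified epithelial tumours came from parous mice and were the metaplastic adenosquamous carcinomas (ASQC) MS1210.1 and MS1349.1 and the AC(NST) MS1166.1. MS1156.1, also parous and not/low-amplified, was a mammary sarcoma. Ages of the mice are not in the labels.

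Each tumour was 1 RNA library, with 12501225 to 23912429 reads counted on genes. MS1163.1 and MS1163.2 carry the same mouse number, although the submitters describe 1 tumour per mouse. All tumours of virgin mice were high-amplified and both ASQC tumours were not/low-amplified, so amplification, parity and histotype cannot be fully told apart. The DNA assays of the study were discordant on the amplification of MS1213.1 and MS1218.2, which are grouped here by their labels. The 8 epithelial tumours all held luminal epithelial markers (summed normalized counts of 7 genes of 34802 to 137200, against 464 in the sarcoma), and the sarcoma held skeletal muscle markers (218650 against 80.1 to 26086). Among the epithelial tumours, MS1163.2 had the 26086 and the others at most 651, and the part of muscle in the levels of MS1163.2 was not tested. These are whole-tumour samples, in which fewer cells of a type and less RNA per cell cannot be told apart. Levels are given as normalized counts, which are the read counts divided by a size factor for each tumour.

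Cells short of oxygen stabilize the hypoxia-inducible factors (HIFs), transcription factors whose alpha subunits are otherwise hydroxylated by oxygen-dependent prolyl hydroxylases (the Egln enzymes), bound by the VHL protein and degraded. HIFs bind a short core sequence in hypoxia response elements and switch on genes that bring in blood vessels, raise glucose uptake and glycolysis, keep pyruvate out of the mitochondria, export acid and remove mitochondria. In solid tumours the same genes are often used as a readout of poor oxygen supply, and many of them also respond to growth factor signalling. Vegfa (ENSMUSG00000023951, chr17:46016993-46032369, GRCm38) encodes the main angiogenic growth factor, and Adm (ENSMUSG00000030790, chr7:110627661-110629820) the vasodilator peptide adrenomedullin. Car9 (ENSMUSG00000028463, chr4:43506966-43513729) encodes a carbonic anhydrase of the cell surface that handles acid outside the cell. Slc2a1 (ENSMUSG00000028645, chr4:119108711-119137983) encodes the glucose transporter GLUT1, Hk2 (ENSMUSG00000000628, chr6:82725025-82774454) a hexokinase that traps glucose in the cell, Pgk1 (ENSMUSG00000062070, chrX:106187100-106203699) phosphoglycerate kinase, and Ldha (ENSMUSG00000063229, chr7:46841475-46855627) the lactate dehydrogenase subunit that favours lactate production. Pdk1 (ENSMUSG00000006494, chr2:71873224-71903858) encodes a kinase that inactivates pyruvate dehydrogenase. Bnip3 (ENSMUSG00000078566, chr7:138890836-138909519) encodes a mitochondrial protein that acts in mitophagy, and Ndrg1 (ENSMUSG00000005125, chr15:66929318-66969640) a cytoplasmic stress-response protein.

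Promoter sequences were available from RefSeq (GRCm38.p6) for 9 of the 10 genes, as 12 windows of 250 bases before and 50 after an annotated start. The core letters of the hypoxia response element, ACGTG on either strand, occurred in 7 of the 12 windows, and in 19.6% of all 32851 windows of the same length. These 7 windows belonged to Vegfa, Car9, Slc2a1, Ldha, Hk2, Pgk1 and Bnip3. For Vegfa the match lay in the window of a start inside the gene (chr17:46025114-46025413), and the window at its more upstream start held none. GCGTG, the other common form of the core, occurred in 7 of the 12 windows, from 6 of the genes, and in 32.4% of all windows. A palindromic CACGTG counts once on each strand. The more upstream of the windows annotated for Ldha held 5 ACGTG matches, the most of any of the 12. A match is a sequence description and not a measurement of HIF binding. The windows of Ldha, of Pgk1 and Bnip3, the genes with the widest gap between their lowest tumour and the next, and of Car9, whose level had the widest range, are shown 5′ to 3′ with ACGTG and its reverse complement in capitals.
Ldha, chr7:46845554-46845853, plus strand: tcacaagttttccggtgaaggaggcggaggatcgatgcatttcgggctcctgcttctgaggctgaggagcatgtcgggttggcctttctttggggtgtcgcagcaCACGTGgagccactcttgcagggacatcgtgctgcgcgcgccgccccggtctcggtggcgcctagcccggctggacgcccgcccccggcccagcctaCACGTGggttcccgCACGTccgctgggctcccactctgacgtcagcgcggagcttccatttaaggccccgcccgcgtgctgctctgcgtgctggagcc
Pgk1, chrX:106186850-106187149, plus strand: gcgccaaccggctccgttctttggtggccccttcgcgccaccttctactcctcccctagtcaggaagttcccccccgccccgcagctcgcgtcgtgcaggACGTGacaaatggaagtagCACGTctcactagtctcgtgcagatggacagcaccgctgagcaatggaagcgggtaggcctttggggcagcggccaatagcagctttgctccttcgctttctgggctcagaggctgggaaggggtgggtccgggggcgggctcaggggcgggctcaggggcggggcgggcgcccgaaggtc
Bnip3, chr7:138909457-138909756, minus strand: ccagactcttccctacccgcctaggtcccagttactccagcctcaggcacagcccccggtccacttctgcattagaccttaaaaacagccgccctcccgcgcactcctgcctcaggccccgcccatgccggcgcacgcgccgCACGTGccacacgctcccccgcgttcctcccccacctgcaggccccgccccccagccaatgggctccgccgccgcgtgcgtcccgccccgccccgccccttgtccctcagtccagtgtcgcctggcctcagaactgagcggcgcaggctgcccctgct
Car9, chr4:43506776-43507075, plus strand: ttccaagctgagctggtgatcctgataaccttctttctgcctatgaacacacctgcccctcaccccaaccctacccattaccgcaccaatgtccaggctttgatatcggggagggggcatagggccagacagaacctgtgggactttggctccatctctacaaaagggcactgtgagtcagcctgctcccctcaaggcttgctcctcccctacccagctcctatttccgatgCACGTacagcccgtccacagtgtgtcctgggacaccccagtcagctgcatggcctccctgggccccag

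Between the lowest and the highest of the 8 epithelial tumours, the levels of the 10 genes differed by 3.08-fold for Ldha to 29.1-fold for Car9, with a median over the genes of 6.79-fold, against 3.81-fold over all 14007 genes tested. MS1213.1, a high-amplified AC(NST) from a virgin mouse, had the lowest level of 9 of the 10 genes, all but Ndrg1, while 13% of all genes tested were lowest in this tumour. MS1166.1, an AC(NST) without high amplification, had the highest level of 6 of the 10 genes (Slc2a1, Pgk1, Ldha, Adm, Bnip3 and Ndrg1), while 22.3% of all genes were highest in it. MS1349.1 was highest for Hk2 and Pdk1, MS1155.3 for Vegfa and MS1218.2 for Car9. Summed luminal markers were also lowest in MS1213.1 (34802, with 35106 in MS1163.2) and highest in MS1166.1 (137200). Of the 8 tumours, MS1166.1 had the lowest sums of macrophage (3454), fibroblast (28575), endothelial (2465) and red blood cell markers (173). The part of cell make-up in the levels of MS1213.1 and MS1166.1 was not tested. None of the 10 genes was called between high-amplified and not/low-amplified tumours or between ASQC and AC(NST) tumours by edgeR, DESeq2 or limma.

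**Figure D1:**
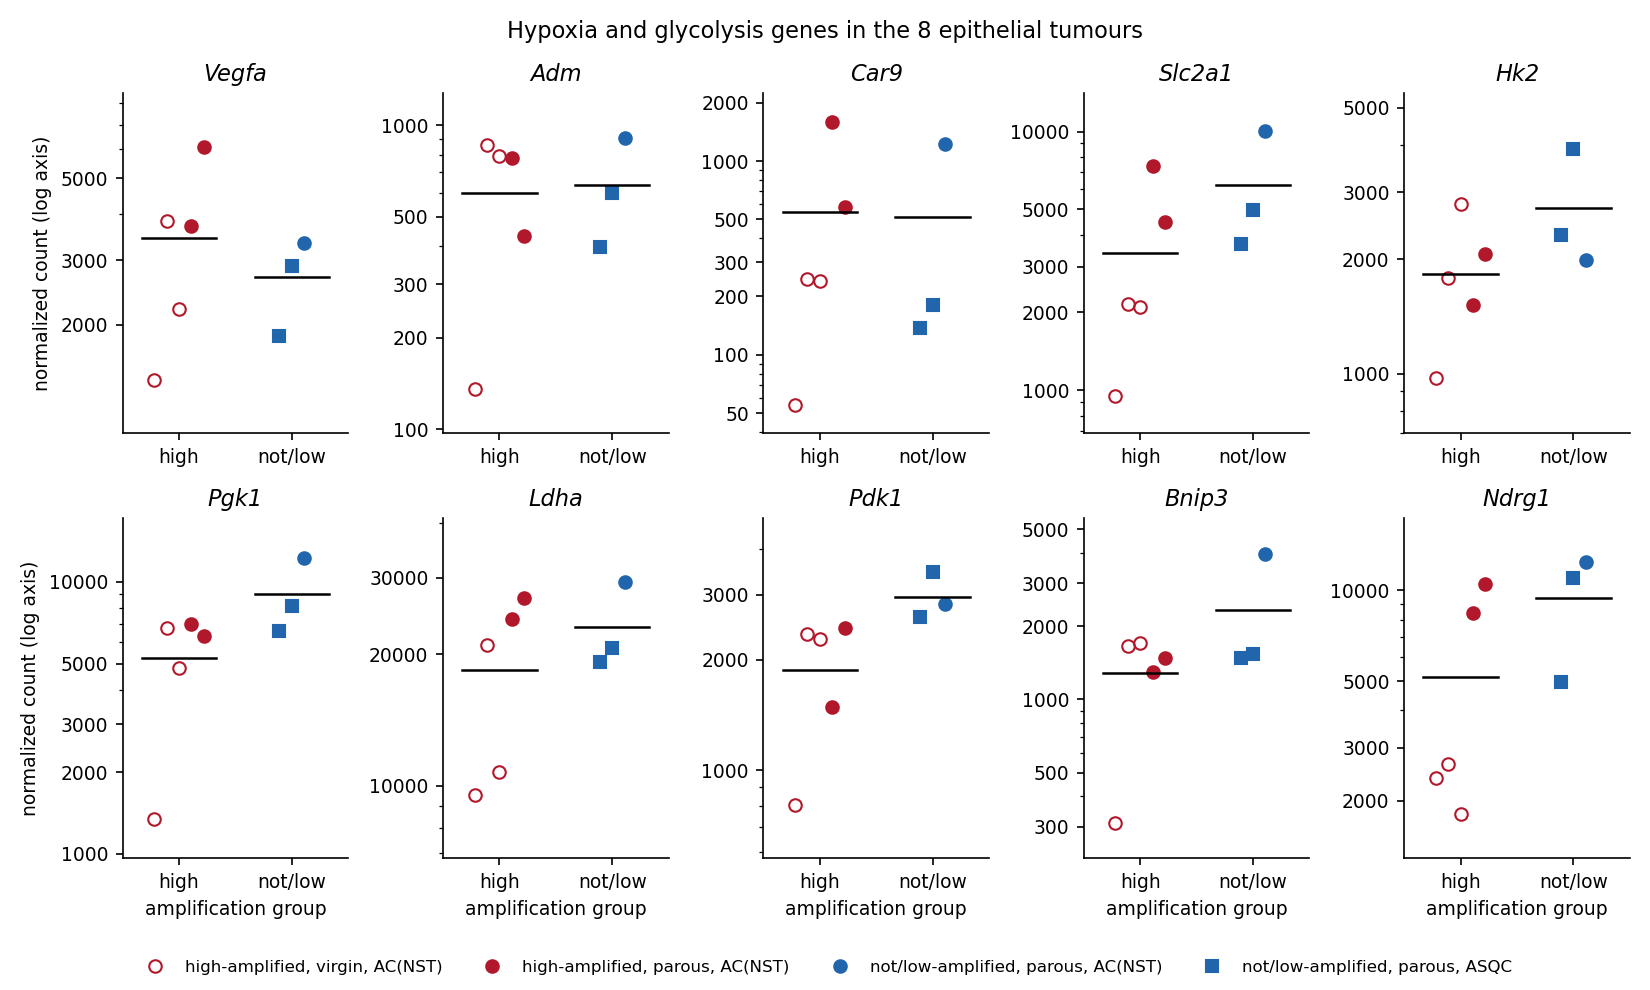
Normalized counts (vertical log axis) of the 10 genes in the 8 epithelial tumours, split into the high-amplified and not/low-amplified groups, with 1 point per tumour; the horizontal bars are group means. MS1213.1 is the lowest open red circle for every gene but Ndrg1, and the groups overlap for every gene but Pdk1.

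Among the high-amplified tumours, the normalized counts of Vegfa, the angiogenic ligand, were 6081 for MS1155.3, 3831 for MS1163.1, 3723 for MS1218.2, 2215 for MS1163.2 and 1418 for MS1213.1. Without high amplification they were 3337 for MS1166.1, 2894 for MS1349.1 and 1864 for MS1210.1. The not/low-amplified values lay within the high-amplified range, and MS1155.3 stood 1.59-fold above the next tumour. The log2 fold change, high-amplified over not/low-amplified, was 0.38 (SE 0.45, 95% interval -0.63 to 1.38, edgeR adjusted p = 0.642). The normalized counts of Adm, the vasodilator, were 860.4 for MS1163.1, 793 for MS1163.2, 780.4 for MS1218.2, 433 for MS1155.3 and 136 for MS1213.1 among the high-amplified tumours, and 908 for MS1166.1, 599.8 for MS1349.1 and 397 for MS1210.1 among the others. It was thus low in the tumour with the highest Vegfa, and the groups overlapped, with a log2 fold change of -0.06 (SE 0.53, interval -1.25 to 1.13, adjusted p = 0.954).

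Car9 had by far the widest range. Its normalized counts in high-amplified tumours were 1595 in MS1218.2, 582 in MS1155.3, 247 in MS1163.1, 241 in MS1163.2 and 54.9 in MS1213.1. Among the not/low-amplified tumours, the ASQC tumours MS1210.1 and MS1349.1 had 138 and 181, and the AC(NST) MS1166.1 had 1224. High Car9 therefore occurred in 1 tumour of each amplification group, both AC(NST). The log2 fold change between the amplification groups was 0.12 with an interval of -2.14 to 2.39 (SE 1.01, adjusted p = 0.952). It rested on MS1218.2, without which the log2 fold change was -0.83 (adjusted p = 0.558). It was -0.37, -0.27 and 1.77 without MS1210.1, MS1349.1 and MS1166.1 in turn, and between AC(NST) tumours alone it was -1.18 (adjusted p = 0.615). MS1218.2 also held the highest summed macrophage markers (47444 against 3454 to 14011 in the other epithelial tumours), endothelial markers (14170 against 2465 to 5894) and fibroblast markers (360980 against 28575 to 111960), and their part in its Car9 level was not tested. By the study's methods it was the tumour that fell short of the tumour cell purity of the others.

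Slc2a1, the glucose transporter, reached normalized counts of 7328 in MS1218.2, 4480.0 in MS1155.3, 2159 in MS1163.1, 2104 in MS1163.2 and 954 in MS1213.1 in the high-amplified group. In the not/low-amplified group it reached 10016 in MS1166.1, 4972 in MS1349.1 and 3687 in MS1210.1. The 3 virgin tumours, among them both of the same mouse number, were the lowest of the 8, an order that 5.35% of all genes tested shared, and the parous high-amplified tumours fell within the not/low-amplified range. The log2 fold change was -0.84 (SE 0.60, interval -2.19 to 0.51, adjusted p = 0.424), and within the 5 parous tumours it was -0.0091 (adjusted p = 0.996). Hk2, the hexokinase, had normalized counts of 2797 in MS1163.2, 2058 in MS1155.3, 1786 in MS1163.1, 1515 in MS1218.2 and 975 in MS1213.1, against 3893 in MS1349.1, 2309.7 in MS1210.1 and 1989 in MS1166.1. MS1349.1 stood 1.39-fold above the next tumour, and the log2 fold change was -0.57 (SE 0.36, interval -1.38 to 0.24, adjusted p = 0.365).

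Pgk1, the phosphoglycerate kinase, had normalized counts of 7015 in MS1218.2, 6756 in MS1163.1, 6339 in MS1155.3, 4829 in MS1163.2 and 1349 in MS1213.1 in the high-amplified tumours. In the others it had 12228 in MS1166.1, 8156 in MS1349.1 and 6589.5 in MS1210.1. Apart from MS1213.1, 5.01-fold below the median of the other 7 tumours, the tumours lay within 2.53-fold of each other. The log2 fold change was -0.75 (SE 0.48, interval -1.83 to 0.32, adjusted p = 0.369). Ldha, the lactate dehydrogenase, was the most abundant of the genes per kilobase of exon. Its highest level was 3.08-fold the lowest, the narrowest range of the set, but 2.73-fold without MS1213.1, when Adm (2.29-fold), Pdk1 (2.33), Pgk1 (2.53) and Hk2 (2.57) were narrower. Its normalized counts were 26897 in MS1155.3, 24127 in MS1218.2, 21002 in MS1163.1, 10735 in MS1163.2 and 9531 in MS1213.1 in high-amplified tumours, and 29343 in MS1166.1, 20664 in MS1349.1 and 19241 in MS1210.1 in the others. MS1213.1 and MS1163.2 formed the low end and the other 6 tumours lay together, with a log2 fold change of -0.30 (SE 0.44, interval -1.28 to 0.68, adjusted p = 0.709).

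Pdk1, the pyruvate dehydrogenase kinase, was the gene of the set whose groups did not overlap. The high-amplified tumours had normalized counts of 2444 for MS1155.3, 2346 for MS1163.1, 2282 for MS1163.2, 1487 for MS1218.2 and 805 for MS1213.1, and the not/low-amplified tumours 3465 for MS1349.1, 2838 for MS1166.1 and 2607 for MS1210.1. All 3 not/low-amplified tumours were above all 5 high-amplified tumours, with means of 2970.2 ± 444 (SD, n = 3) and 1873 ± 708 (SD, n = 5). The gap was narrow, from 2444 to 2607, and the log2 fold change of -0.65 (SE 0.36, interval -1.45 to 0.14) did not pass the test (adjusted p = 0.301). An exact permutation test of its log2 values gave p = 0.107, where 0.0179 is the smallest that 56 splits can give. Of all genes tested, 8.04% had every high-amplified tumour below every not/low-amplified tumour and 7.55% the reverse.

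Bnip3, the mitophagy gene, had normalized counts of 1710.0 in MS1163.2, 1649.5 in MS1163.1, 1472 in MS1155.3, 1295 in MS1218.2 and 312 in MS1213.1 in the high-amplified group. The not/low-amplified group had 3952 in MS1166.1, 1541 in MS1349.1 and 1479.8 in MS1210.1. The 6 values between 1295 and 1710.0 were thus framed by 1 tumour 4.15-fold below them and 1 tumour 2.31-fold above them. The log2 fold change was -0.83 (SE 0.52, interval -1.99 to 0.33, adjusted p = 0.361). Ndrg1, the stress-response gene, had normalized counts of 10474 in MS1155.3, 8409 in MS1218.2, 2650.5 in MS1163.1, 2384 in MS1213.1 and 1801 in MS1163.2 in the high-amplified and 12412 in MS1166.1, 11034 in MS1349.1 and 4974 in MS1210.1 in the not/low-amplified tumours. The 3 virgin tumours were the lowest of the 8, as for Slc2a1, which makes 2 of the 10 genes with this order. The log2 fold change was -0.86 (SE 0.62, interval -2.25 to 0.54, adjusted p = 0.431), and 0.055 within the 5 parous tumours.

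Over the 10 genes, 8 had a lower and 2 a higher fitted level in the high-amplified tumours, with a median log2 fold change of -0.61 against 0.02 over all genes tested. None was called by edgeR (adjusted p under 0.05 and a fold change over 2), where 0.921% of all genes were called, by DESeq2, where 10.8% were called, or by limma, where 1.35% were called. None had an unadjusted p under 0.05 by any of the 3 tools, against 22.8% of all genes by edgeR. With 1 tumour left out, only Slc2a1 was under 0.05 unadjusted by edgeR, without MS1218.2 (adjusted p = 0.128). The median for the 10 genes was -0.0042 within the 5 parous tumours and -0.04 with parity in the model, with 5 and 4 genes on the higher side, and it was -0.93 between AC(NST) tumours alone. With 1 tumour left out it ranged from -0.72 without MS1210.1 to -0.29 without MS1166.1, and it was -0.44 without MS1213.1 and also without MS1349.1. Single tumours also carried much of the fitted differences of the genes. Without MS1166.1, Bnip3 was at -0.23, Slc2a1 at -0.34, Ldha at -0.11 and Pgk1 at -0.49, without MS1349.1 Hk2 was at -0.21, and without MS1155.3 Vegfa was at 0.07. In the other direction, Slc2a1 was at -1.33 without MS1218.2, Ldha at -0.47 and Ndrg1 at -1.29 without MS1155.3, and Vegfa at 0.58 without MS1213.1. The intervals reached beyond a 2-fold difference in at least 1 direction for every gene, so differences of that size lay within the error at these numbers of tumours. Summed luminal markers did not overlap between the groups (34802 to 55221 in high-amplified and 79266 to 137200 in not/low-amplified tumours), and their part in the levels of the 10 genes was not tested.

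**Figure D2:**
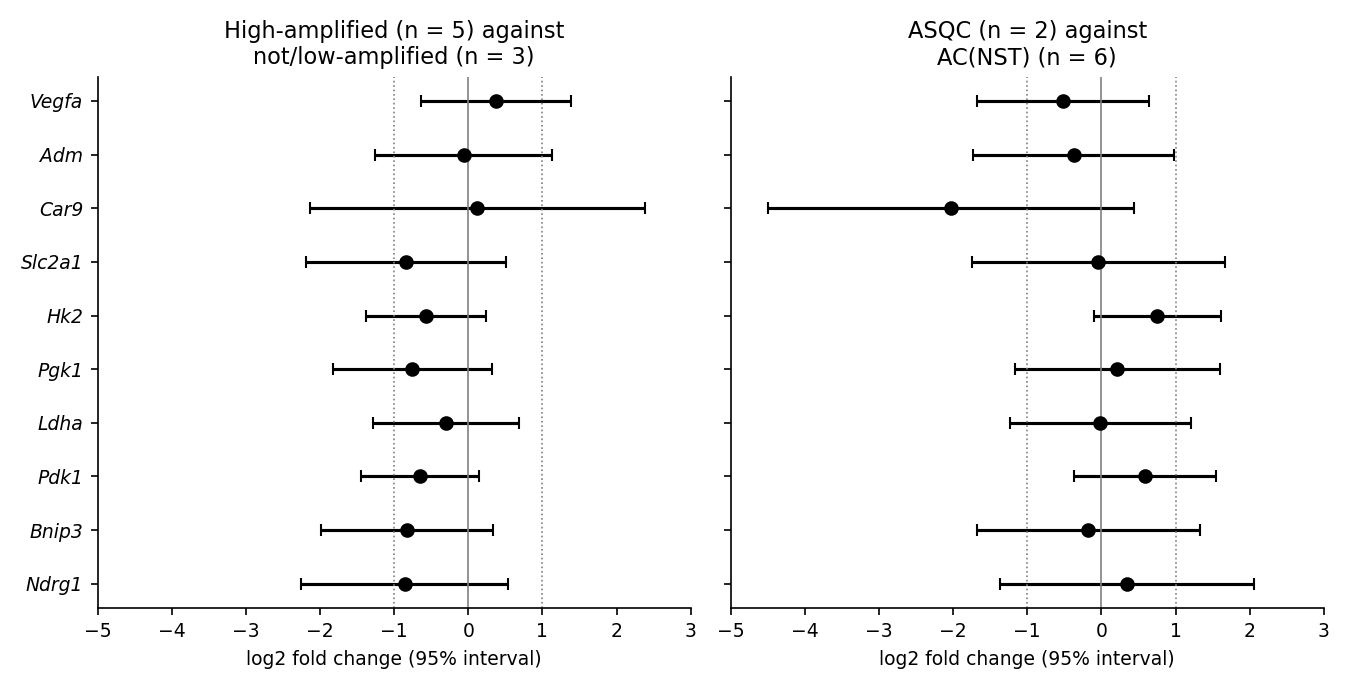
Fitted log2 fold changes of the 10 genes (points) with 95% intervals (bars), for high-amplified over not/low-amplified tumours on the left and ASQC over AC(NST) tumours on the right; dotted lines mark a 2-fold difference. Every interval includes 0, and the intervals of Car9 are the widest, -2.14 to 2.39 and -4.50 to 0.44.

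By histotype, the 2 ASQC tumours were compared with the 6 AC(NST) tumours. Car9 was at 160 ± 30.6 normalized counts in ASQC (SD, n = 2) and 657 ± 618 in AC(NST) (SD, n = 6), where it ranged from 54.9 to 1595. Its log2 fold change of -2.03 (SE 1.11, interval -4.50 to 0.44, adjusted p = 0.636) was beyond 2-fold but not called, and the ASQC values lay inside the AC(NST) range. Hk2 was higher in ASQC on average, 3101 ± 1119 against 1853 ± 607, with a log2 fold change of 0.75 (SE 0.38, interval -0.10 to 1.61, adjusted p = 0.616). Pdk1 had 3036 ± 607 in ASQC and 2034 ± 746 in AC(NST), a log2 fold change of 0.59 (SE 0.43, interval -0.36 to 1.55, adjusted p = 0.720). Vegfa and Adm had log2 fold changes of -0.52 (SE 0.52, adjusted p = 0.819) and -0.37 (SE 0.61, adjusted p = 0.901). The other 5 genes lay between -0.18 for Bnip3 and 0.35 for Ndrg1, with adjusted p-values of 0.934 or more.

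None of the 10 genes was called by histotype, where edgeR called 0.236%, DESeq2 3.44% and limma 0.1% of all genes, and none had an unadjusted p under 0.05 by edgeR, against 8.72% of all genes. DESeq2 gave 1 gene, Car9, an unadjusted p under 0.05 and did not call it (adjusted p = 0.304, range over the alternatives 0.304 to 0.9998). Among the edgeR alternatives, Car9 was also under 0.05 unadjusted within the parous tumours and without MS1213.1, and Hk2 without MS1163.2. Neither gene was called there. The groups overlapped for all 10 genes, while 5.3% of all genes were higher in every ASQC tumour and 4.98% lower. The median log2 fold change was -0.03, against -0.08 over all genes. It was -0.48 within the parous tumours, against -0.12 over all genes. With amplification as a covariate it was -0.63, against 0.05. In both settings 2 genes were on the higher and 8 on the lower side. MS1166.1 is the tumour that separates this comparison from that by amplification: without it, the 2 ASQC tumours are set against the 5 high-amplified tumours, and the median over the 10 genes was 0.29. An exact permutation test over 28 splits gave no p below 0.143 for any of the 10 genes, where 0.0357 is the smallest possible.

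Deviations from the median of the other 7 tumours showed how far each tumour moved the set together. In MS1213.1 the median deviation was -1.98 on the log2 scale, and the genes ranged from -2.51 for Adm to -1.08 for Hk2. In MS1166.1 the median was 0.74, from -0.05 for Hk2 to 2.34 for Car9. The other 6 tumours had medians between -0.29 (MS1163.2) and 0.29 (MS1218.2), and each of them had genes on both sides. Within them the genes did not move as 1 block: in MS1218.2, Car9 was at 2.72 while Pdk1 was at -0.72, and in MS1155.3, Car9 was at 1.27 while Adm was at -0.85.

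**Figure D3:**
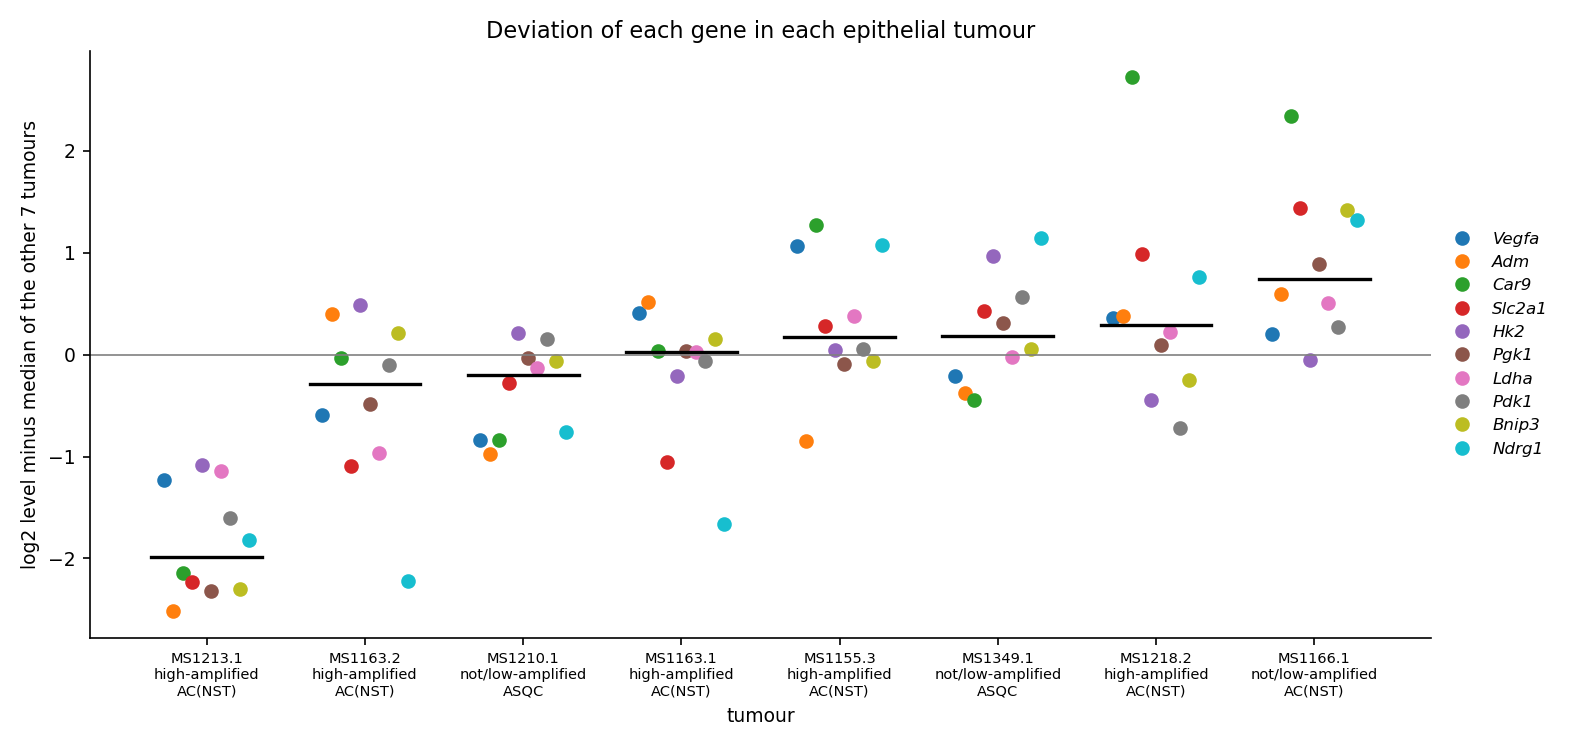
Log2 level of each gene minus the median of the other 7 epithelial tumours (vertical axis), for each tumour (horizontal axis, ordered by the median over the genes, drawn as a black bar). All 10 genes lie below 0 in MS1213.1, from -2.51 to -1.08, and 9 of 10 lie above 0 in MS1166.1.

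Libraries also differed by the length of the gene. When the genes were split into 5 equal groups by exon length, the median deviation of the shortest and the longest group was -0.44 and 0.31 in MS1213.1, 0.47 and -0.43 in MS1166.1 and 0.39 and -0.44 in MS1218.2. The exons of the members spanned 1619 bases (Adm) to 7779 (Pdk1). The 3 longest members, Hk2 (5969 bases), Ndrg1 (6596) and Pdk1, deviated by -1.08, -1.82 and -1.60 in MS1213.1 and by -0.05, 1.32 and 0.27 in MS1166.1. The part of length in these deviations was not tested. With an offset for exon length, chosen after the data were seen, none of the 10 genes was called, and Pdk1 alone had an unadjusted p under 0.05 between the amplification groups (log2 fold change -0.90, adjusted p = 0.177, range over the alternatives 0.177 to 0.826).

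Other genes known to be induced by hypoxia were also often lowest in MS1213.1. Of 26 such genes, listed with earlier results known, 15 were lowest in MS1213.1, where 13% of all genes were lowest, and their median deviation there was -1.35. In MS1166.1, 7 of the 26 were highest (26.9%, against 22.3% of all genes), with a median deviation of 0.42, and MS1218.2 had the highest level of 10 (38.5%, against 20% of all genes). Of 21 other glycolytic enzyme genes tested, 8 were lowest in MS1213.1, with a median deviation there of -0.78. The highest level of 9 of these 21 was in MS1218.2 (42.9%, against 20% of all genes). The HIF system itself, the HIF subunits, hydroxylases and VHL, had 4 of 10 genes lowest in MS1213.1. The 10 genes of the whole table whose log2 levels over the 8 tumours were most like the mean of the set were Glyctk, Txn2, Fem1a, Eno1, Smim20, Ppme1, Cox14, Pim3, Copz1 and Grhpr, with Pearson correlations from 0.927 to 0.958. Eno1, the enolase of glycolysis, was the only 1 of them on the pathway lists, and 8 of the 10 had exons shorter than the median of 4461 bases. These correlations share 8 libraries, among them MS1213.1, and are a description. The median correlation with the set was 0.61 over the 26 other hypoxia-induced genes and 0.43 over the 21 glycolytic genes, against -0.02 over all 13997 genes compared.

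Of 104 other genes of the pathway that were tested, edgeR called none between the amplification groups, while 11 were higher and 17 lower at an unadjusted p under 0.05, where 22.8% of all genes passed. DESeq2 called 16 of these genes, where it called 10.8% of all genes, and limma called 1. Pdk4, the pyruvate dehydrogenase kinase best known from fasting, had 13.5 to 58.3 normalized counts in the high-amplified tumours and 98.5, 206 and 2769 in MS1210.1, MS1349.1 and MS1166.1. Its log2 fold change of -5.02 (SE 1.005) missed the threshold with edgeR (adjusted p = 0.0538) and passed it with DESeq2 (adjusted p = 3.05e-06), over a range of 3.05e-06 to 0.448 among the alternatives. It rested largely on MS1166.1, without which it was -2.31. In the same list of pyruvate entry, Pdp1, a pyruvate dehydrogenase phosphatase, and Pdhb, a subunit of the enzyme, were lower in every high-amplified tumour (log2 fold changes -1.42 and -0.94, edgeR adjusted p = 0.0839 and 0.131, DESeq2 adjusted p = 0.0117 and 0.0672). This list of 12 genes had 6 that were lower in every high-amplified tumour, as were 8.04% of all genes, and a median of -0.60, against 0.02 over all genes. Several of these gaps were narrow, from 1315 to 1323 normalized counts for Dlat, 3753 to 3804 for Pdha1 and 1109 to 1130 for Pdhb.

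Hk1, the widely expressed hexokinase, was higher in every high-amplified tumour. Its normalized counts there were 10474 in MS1218.2, 9228 in MS1163.1, 9138 in MS1155.3, 6773 in MS1163.2 and 4379 in MS1213.1. In the not/low-amplified tumours it had 3275 in MS1166.1, 2910.0 in MS1349.1 and 2880.1 in MS1210.1, and the log2 fold change was 1.42 (SE 0.34, edgeR adjusted p = 0.0744, DESeq2 adjusted p = 0.00153, range over the alternatives 0.00153 to 0.318). Pfkp, a phosphofructokinase, was likewise without overlap (log2 fold change 1.26, SE 0.38, edgeR adjusted p = 0.106, DESeq2 adjusted p = 0.0217). Pgam1, the phosphoglycerate mutase, and the lactate exporter Slc16a3 lay lower in every high-amplified tumour (-1.22, SE 0.49, adjusted p = 0.180, and -2.13, SE 0.77, adjusted p = 0.149), as did Mxi1, a MYC antagonist among the hypoxia-induced genes (-1.01, SE 0.32, adjusted p = 0.120), and Ramp3, a receptor partner for adrenomedullin (-2.01, SE 0.67, adjusted p = 0.130). DESeq2 called Slc16a3 (adjusted p = 0.0465) and Ramp3 (0.0379) but neither Pgam1 (0.118) nor Mxi1 (0.0572). For Slc16a3 the tumours of virgin mice were the lowest (147 to 205 normalized counts), below the parous high-amplified MS1155.3 (1034) and MS1218.2 (1457). Its log2 fold change was -1.03 within the parous tumours and -1.07 with parity in the model. Ramp3 rested on low counts, 2.89 to 18.5 normalized counts in the high-amplified tumours and 25.6 to 74.9 in the others. Among relatives of the members, Car6, a secreted carbonic anhydrase, had 346 to 3453 normalized counts in high-amplified tumours and 3.57 to 42.4 in the others (log2 fold change 6.13, SE 1.28, edgeR adjusted p = 0.0569, limma adjusted p = 0.0222, range over the alternatives 5.40e-09 to 0.879). Ndrg2 and Car13 were lower without overlap (-1.78 and -1.06, edgeR adjusted p = 0.0855 and 0.109, DESeq2 adjusted p = 0.00972 and 0.0388). For Car13 the gap was narrow, from 383 to 387 normalized counts. The other pathway genes that DESeq2 called were Stc1, lower in the high-amplified tumours, and Aldoc, Pgf, Figf, Car8, Car12 and Ndrg4, which were higher.

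By histotype, edgeR called none of the 104 pathway genes, with 3 higher and 10 lower at an unadjusted p under 0.05, where 8.72% of all genes passed. DESeq2 called 2 of them, Car6 and Car8, and 3.44% of all genes, and limma called none. Car6 was lower in ASQC, with a DESeq2 log2 fold change of -5.42 (adjusted p = 0.00302, edgeR adjusted p = 0.4999), but MS1166.1 had the lowest level of all. Hk1 and Pfkp were lower in both ASQC tumours than in any AC(NST) tumour (log2 fold changes -1.31, SE 0.53, and -1.35, SE 0.50; adjusted p = 0.513 and 0.481). The same held for the enolase Eno2, the transporter Slc16a7, the kinase Pdk3 and the carbonic anhydrase-related Car8 (-1.32, -1.52, -0.72 and -3.19, edgeR adjusted p = 0.527, 0.523, 0.610 and 0.331), of which DESeq2 called Car8 alone (adjusted p = 0.00381). For Hk1 and Pfkp, the lowest AC(NST) tumour was the not/low-amplified MS1166.1. Hk1 was at 2880.1 and 2910.0 normalized counts in ASQC, 3275 in MS1166.1 and 4379 to 10474 in the other AC(NST) tumours. Pfkp was at 2029 and 2256, 3243, and 3545 to 8751. Over the alternatives, the log2 fold change ranged from -1.47 to -0.13 for Hk1 and from -1.61 to -0.55 for Pfkp. Slc16a3, Ramp1 and Pdhx lay higher in both ASQC tumours (1.90, 1.21 and 0.43, adjusted p = 0.595, 0.595 and 0.724). For Pdhx the gap was narrow, from 586.6 to 588.7 normalized counts.

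Levels per kilobase of exon allowed the members to be set beside their relatives. The length used was that of all annotated exons of a gene together, which can exceed that of the transcript expressed. Families and shares were chosen after the values had been seen and carry no test. By median over the 8 tumours the order was Ldha (6294 normalized counts per kilobase), Pgk1 (2974), Slc2a1 (1165), Ndrg1 (1014.5), Vegfa (727), Bnip3 (667), Adm (426), Hk2 (339), Pdk1 (308) and Car9 (106). The range of Ldha, 2880 to 8865, and that of Pgk1, 601 to 5449, overlapped, and so did those of each other neighbouring pair in this order. Hk2 made up 15.4% to 36.6% of the summed level of Hk1, Hk2 and Hk3 in the high-amplified tumours and 45.7% to 61.9% in the not/low-amplified tumours. Hk2 was above Hk1 in both ASQC tumours, with 652 normalized counts per kilobase against 341 in MS1349.1 and 387 against 338 in MS1210.1. In MS1163.1 Hk2 had 299 against 1081.5. The order in MS1210.1 depended on the lengths used, 5969 bases for Hk2 and 8532 for Hk1. Before division by length, Hk2 had 2309.7 normalized counts there and Hk1 2880.1, against 3893 and 2910.0 in MS1349.1.

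Pdk1 made up 21.9% to 48.6% of the 4 pyruvate dehydrogenase kinases in high-amplified tumours, 56.0% and 54.9% in the ASQC tumours MS1210.1 and MS1349.1, and 22.7% in MS1166.1, where Pdk4 held 49.1%. Ldha made up 77.8% to 98.2% of the lactate dehydrogenase level, and the shares of Ldhb were largest in MS1163.2 (22.2%) and MS1166.1 (20.9%). MS1163.2 also had the highest skeletal muscle markers of the epithelial tumours, and their part in its shares was not tested. Slc2a1 was the leading glucose transporter of the 9 measured in 7 of the 8 tumours, with shares of 66.0% to 89.6%. In MS1213.1 it held 40.1% and Slc2a9, a urate and sugar transporter, 42.4%. Ndrg1 held 48.8% of the NDRG genes in MS1163.2 and 94.1% in MS1155.3, and Ndrg4 held 28.7% in the former.

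**Figure D4:**
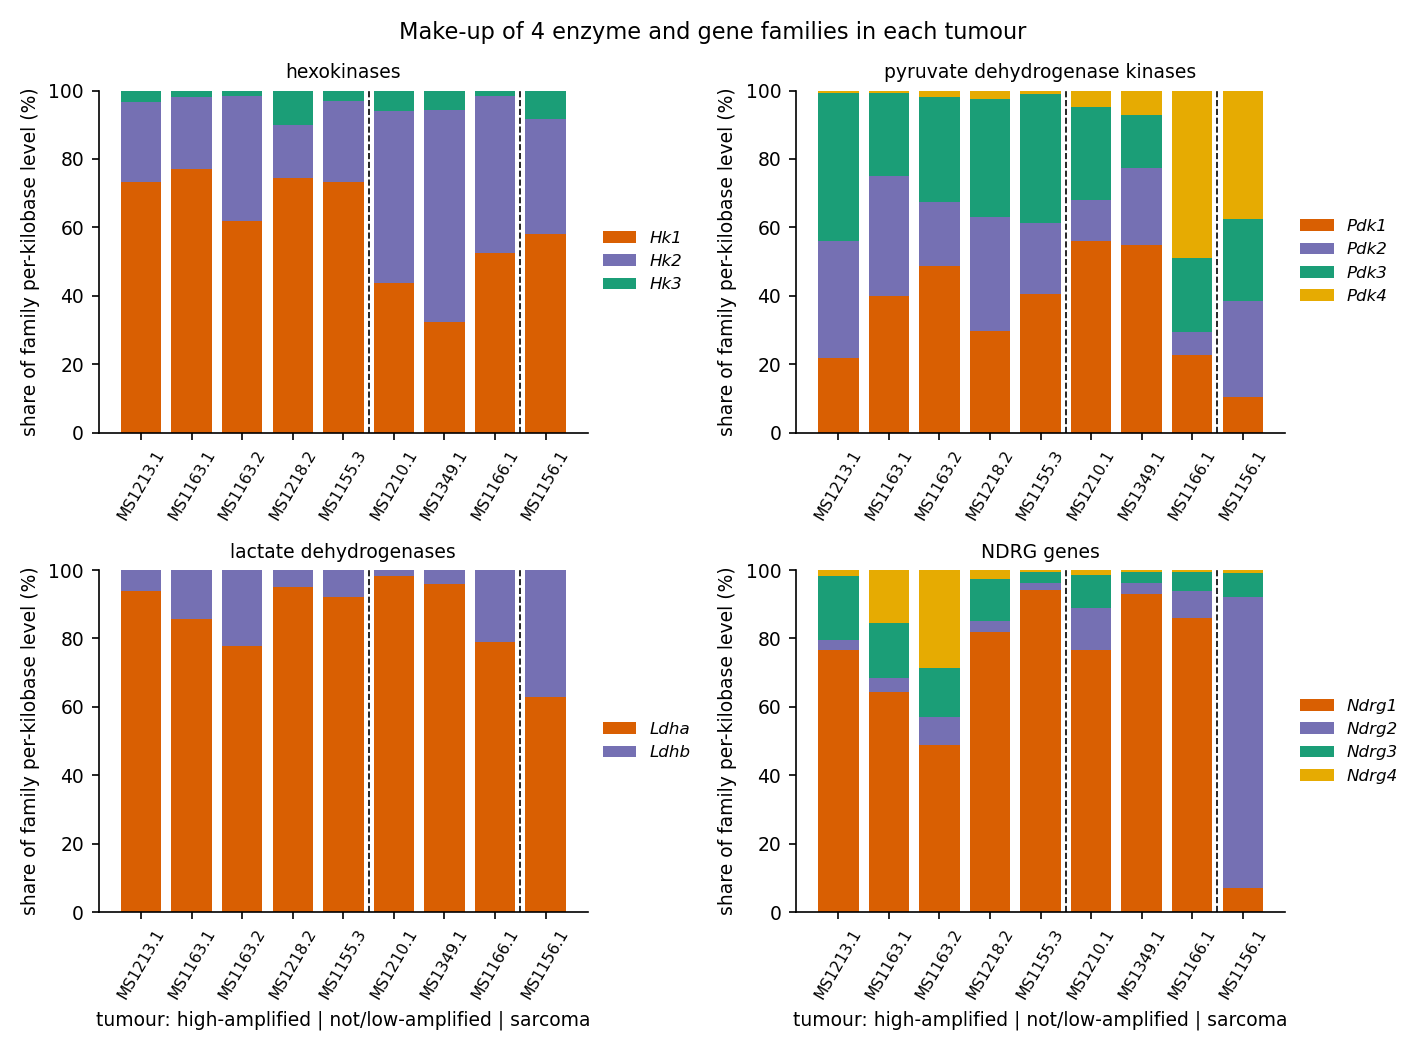
Share of each gene (percent of the summed normalized counts per kilobase of exon of its family, vertical axis) in each tumour (horizontal axis), for hexokinases, pyruvate dehydrogenase kinases, lactate dehydrogenases and NDRG genes. Dashed lines separate the high-amplified, not/low-amplified and sarcoma tumours; Hk2 holds 15.4% to 36.6%, 45.7% to 61.9% and 33.8% in them.

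In the sarcoma, 1 library that carries no test, 9 of the 10 genes lay below every epithelial tumour, against 20.3% of the 14145 genes compared. On a scale common to the 9 tumours, Ldha had 2730 normalized counts (95% Poisson interval 2613 to 2852) against 9212 to 28238 in the epithelial tumours. Slc2a1 had 285 (248 to 326) against 922 to 9639, and Adm had 56.5 (40.7 to 76.3) against 131 to 873. Pgk1 had 1015 against 1304 to 11768, Ndrg1 1110.4 against 1737 to 11945, Vegfa 839 against 1370.1 to 5858, and Pdk1 516 against 778 to 3331. Hk2 was closest to the epithelial range among these 9, with 825 (761 to 893) against a lowest value of 942.

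Car9 was represented by 1 read in the sarcoma, 1.34 normalized counts, and the epithelial median of 234 was 174-fold higher, with a counting interval of 31.3-fold to 6880-fold. Bnip3 was the exception, at 383 (340 to 430) between MS1213.1, with 302, and the other epithelial tumours. The median log2 ratio of the sarcoma to the epithelial median was -2.59 over the 10 genes, against -0.03 over all genes compared, -1.14 over 26 other hypoxia-induced genes and -1.80 over 21 other glycolytic genes. Of these 21 glycolytic genes, 10 were below and 5 above every epithelial tumour. Intervals cover counting error in this library only.

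Beside the muscle markers given above, the sarcoma held summed fibroblast markers of 587620, above the 28575 to 360980 of the epithelial tumours, and the part of either in the levels and shares of this library was not tested. Ndrg2 held 84.9% of the NDRG genes and Ndrg1 7.14%, Pfkm held 83.6% of the phosphofructokinases, and Eno3, the muscle enolase, had 1143 normalized counts per kilobase against 232 of Eno1. Ldhb held 37.2% of the lactate dehydrogenases, Pdk4 37.6% of the kinases with Pdk1 at 10.3%, and Slc2a1 16.5% of the glucose transporters. Slc2a4, the insulin-responsive transporter of muscle and fat, held 25.6% there and at most 3.14% in any epithelial tumour, in MS1163.2.

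**Figure D5:**
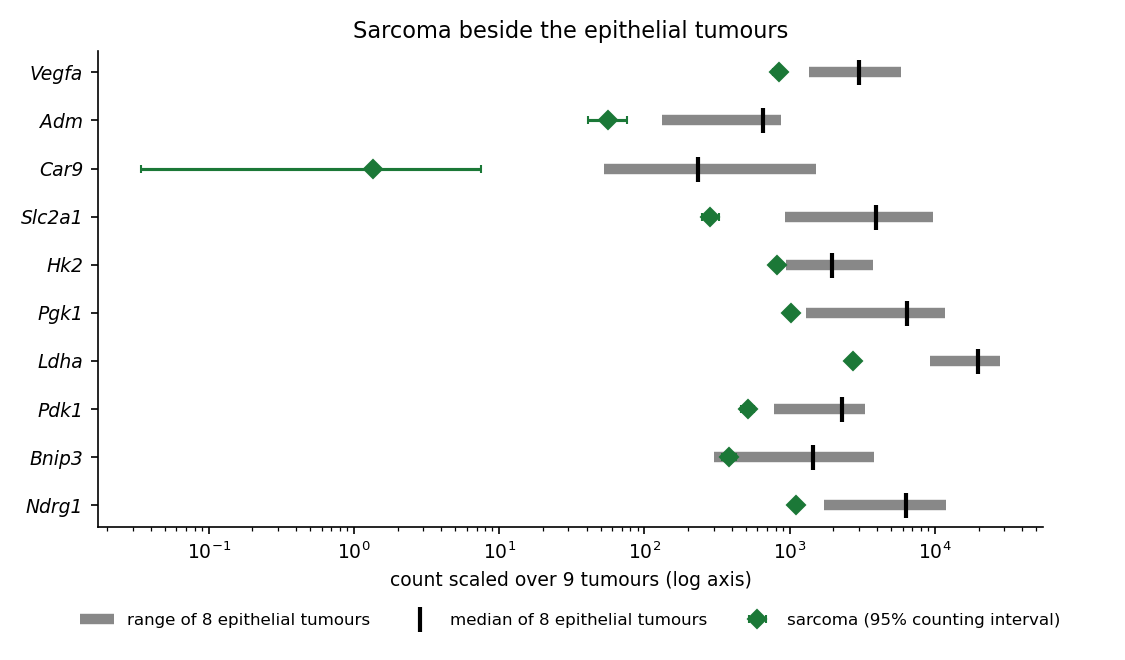
Level of each gene (normalized count on a scale common to 9 tumours, horizontal log axis) in the sarcoma (green diamonds with 95% counting intervals) and in the 8 epithelial tumours (grey bar, range; black tick, median). Each diamond but that of Bnip3 lies left of its grey bar, and Car9 rests on 1 read.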

How the data were processed

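Gene expression was measured by RNA-seq in 9 mammary tumours, each as a single library. Per the labels and the study's methods, ribosomal RNA was depleted, strand-specific paired-end libraries were aligned to GRCm38 with STAR under settings for unstranded alignment, keeping uniquely mapped reads, and counted with HTSeq. Unique mapping can remove reads of genes with near-identical copies, such as Ldha and Pgk1, whose levels are then uncertain. The strand setting of the counting is not given in the sources used here; 6 of the 10 members overlap a gene on the other strand in GENCODE M21, and without strand such reads cannot be told apart. The authors deposited read counts per gene for all 9 tumours and, for the 8 epithelial tumours, a signal that equals these counts divided by 1 size factor per tumour, the normalized count of the text. The sarcoma was set beside them with median-of-ratios factors over the 9 tumours.

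Depth was 12501225 to 23912429 counted reads, at which 3 counts are 1.25e-05% to 2.4e-05% of a library; intervals of this kind cover counting error only. The members had 57 to 28283 reads per epithelial tumour, and all 10 passed the filter of at least 10 counts in at least 3 tumours that 14007 genes passed. Counts of all these genes were fitted with edgeR 4.0.16 (TMM, glmQLFit and glmQLFTest, no covariate, Benjamini-Hochberg adjustment over all genes) under R 4.3.3, for high-amplified against not/low-amplified and ASQC against AC(NST); genes were called at an adjusted p under 0.05 and a fold change over 2. P-values measure the spread between these tumours, each counted as a replicate. The SE of an edgeR log2 fold change was derived in R from the F statistic of its test. Its 95% interval used this SE and the t distribution. Exact permutation tests (two-sided, log2 with a pseudocount of 1), Poisson intervals and summaries used scipy 1.17.1, pandas 2.3.3 and numpy 2.4.6 under Python 3.11.15. Figures used matplotlib 3.10.9. Scripts were tested on simulated data.

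Alternatives were DESeq2 1.42.0, limma 3.58.1 on log2 normalized counts, other filters and scalings, MS1163.1 and MS1163.2 summed, subsets by parity or histotype, covariates, the sarcoma added, each tumour left out, and, added after seeing the data, an offset for exon length. The members and lists were chosen with earlier results of these data known. Genes named beside the members are pathway genes that were called or, up to 3 per list and comparison, had the largest fold change without overlap between groups. The 10 genes most like the mean of the members are also named. Genes of the family shares were chosen after their values were seen. So were pathway genes named because DESeq2 called them or because their gap between groups was narrow.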

Additional observations from a re-analysis of the deposited data

Results flagged for a closer look

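A tumour far from the others of its group was looked for on the log2 scale (Dixon's criterion) in the 5 high-amplified and the 6 AC(NST) tumours for the 10 members and the named pathway genes, 56 groups in all, of which chance picks out about 1 in 20. This rate does not hold for the named pathway genes, which were chosen by their values in these same tumours. The criterion picked out 5 values. Among the high-amplified tumours, Pgk1 in MS1213.1 (1349 normalized counts, the nearest tumour having 4829) and Bnip3 in MS1213.1 (312, nearest 1295) lay far below the rest. Among the AC(NST) tumours, MS1166.1 lay far above the rest for Pdk4 (2769, nearest 58.3) and Car13 (1059, nearest 383) and far below them for Car6 (3.57, nearest 346). MS1166.1 is the only not/low-amplified tumour among the AC(NST), so that the tumour and its amplification label cannot be told apart there. Pdk4, Car13 and Car6 were named because their values did not overlap between the amplification groups. For these genes MS1166.1 therefore had to lie outside the other AC(NST) tumours.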

How the results depend on the processing

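No member was called in either comparison under any alternative, with each tumour left out in turn included (0 to 0 calls), and 9 of 10 members lay below every epithelial tumour in the sarcoma on each scale, 9 to 10 when 1 epithelial tumour was left out. No paired analysis was possible because the groups compared share no mouse number. MS1163.1 and MS1163.2, which carry the same number, lie in the same group in both comparisons. Several uncalled directions turned. With a tumour left out, the amplification log2 fold change ranged from -0.83 to 1.77 for Car9 and from -0.33 to 0.27 for Adm, and by histotype from -0.28 to 0.34 for Slc2a1, -0.16 to 0.11 for Ldha, -0.40 to 0.23 for Bnip3 and -0.35 to 0.75 for Ndrg1. By amplification, AC(NST) tumours alone gave Car9 -1.18. Parous tumours alone gave Ldha 0.21, Adm 0.00059 and Ndrg1 0.055, and parity as a covariate gave Ldha 0.17 and Ndrg1 0.020. With the sarcoma added, Ldha was at 0.054 and Adm at 0.31, and with the exon-length offset Adm was at 0.25. By histotype, limma gave Slc2a1 0.35, Ldha 0.10 and Bnip3 0.14, and the exact permutation test the same differences (0.35, 0.10 and 0.14). Parous tumours alone gave Pgk1 -0.21 and Ndrg1 -0.39, and amplification as a covariate Pgk1 -0.68 and Ndrg1 -0.59. The cause was not tested. Calls over all genes depended far more on the setting: by amplification edgeR called 129 genes, DESeq2 1601, and edgeR without MS1218.2 1255, without MS1210.1 1 and with parity as a covariate 0; by histotype edgeR called 33 and DESeq2 522. The members had 57 to 28283 reads per epithelial tumour, well above 3 counts.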
